A study of Mus musculus with 6 samples.

Results

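The CoREST complex is the target of corin, a compound that inhibits both of its enzyme activities. Transcripts of 9 genes that encode its subunits, Kdm1a, Hdac1, Hdac2, Rcor1, Rcor2, Rcor3, Hmg20b, Phf21a and Gse1, were measured in the cells of B16-F10 tumors. The members were chosen by gene symbol and all 9 were found among the 32285 genes of the count matrices. B16-F10 is a mouse melanoma line, grown here in female C57BL/6 mice aged 6 to 10 weeks. Single-cell RNA-Seq was run on 6 samples, 3 from mice given the PD-1 blocking antibody alone (αPD-1) and 3 from mice given the antibody with corin (αPD-1 + corin). The antibody was given to both groups at 150 µg per mouse, 3 times per week from day 7 after inoculation, and corin at 200 µg per mouse by daily intraperitoneal injection from day 6. There were 10 mice in each treatment group. The protocol names a vehicle, but the labels do not say whether the αPD-1 mice received it, nor which mice gave which sample. The p-values below therefore measure the spread between these samples, which may be technical. Neither an untreated group nor a group with corin alone was analysed here.

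CoREST is a corepressor that sits at promoters and enhancers and keeps genes silent. It joins a histone demethylase, which removes methyl groups from lysine 4 of histone H3, to a class I histone deacetylase on an RCOR scaffold protein. DNA-binding factors bring it to its sites, and it is best known for silencing neuronal genes outside neurons and for its part in blood cell development. The question asked of these data is which cells of the tumor held transcripts of each subunit, and whether those levels differed between the treatments.

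Kdm1a encodes LSD1, the demethylase, and lies at chr4:136277846-136330106 on the minus strand of GRCm39. Hdac1 (chr4:129409895-129436631, minus strand) and Hdac2 (chr10:36850435-36877890, plus strand) encode the 2 deacetylases that can fill the same place in the complex. Rcor1 (chr12:111005769-111082338, plus strand), Rcor2 (chr19:7241690-7252591, plus strand) and Rcor3 (chr1:191782846-191822370, minus strand) encode alternative scaffolds. Hmg20b (chr10:81181874-81186314, minus strand) encodes a DNA-binding HMG box subunit. Phf21a (chr2:92014451-92195011, plus strand) encodes BHC80, which reads unmethylated histone H3 tails, and Gse1 (chr8:120955195-121308129, plus strand) encodes a coiled-coil protein found with the complex. The genes range in span from 4.44 kb (Hmg20b) to 353 kb (Gse1). Gse1 overlaps Gm26971 on its own strand, so reads shared by that pair may be uncertain, and Kdm1a, Rcor2, Rcor3 and Gse1 overlap genes on the opposite strand. Whether reads in introns were counted is not given in the sources used here.

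The cells had been enriched for CD45, a surface protein of immune cells, before capture. The deposited matrices held 52899 cell barcodes, between 6433 and 13228 per sample, with 52281422 to 84276739 unique molecular identifiers (UMIs) per sample. Any pair of libraries shared 10 to 32 barcodes, at most 0.457% of the smaller. After filters on genes per cell and mitochondrial UMIs and removal of doublets, 28865 cells were kept. They were clustered without the 9 members, and clusters were assigned to lineages by markers. The lineages were macrophage-like (10234 cells), T-like (4094), B-like (2662), neutrophil-like (2060), melanoma-like (1882), monocyte-like (1401), DC-like (1373), fibroblast-like (987) and NK-like (415), and are called by the cell type alone below. Melanoma cells and fibroblasts were present although neither carries CD45, and the selection can set every share of cells. The 7 melanoma markers summed to an average of 10360 CPM (counts-per-million, scaled within each lineage and sample) in melanoma cells against 49.3 to 113 in the other lineages, and the summed level of a lineage's own markers averaged from 1668 CPM in DCs to 36440 CPM in fibroblasts. In DCs the monocyte markers averaged 1993 CPM and the macrophage markers 1110 CPM. T cells included 5 sub-clusters, of 739, 538, 421, 354 and 157 cells, that came from the T and NK clusters but matched no type by their leading genes. The αPD-1 + corin samples held only 47, 47 and 12 B cells and the αPD-1 samples only 22, 17 and 24 neutrophils, so member values there rest on few UMIs. A further 3757 cells, of mixed or other types, were in no lineage. Cells with under 5% of UMIs from ribosomal protein genes (4945 of 25108) were kept, and they are described where they touch a result.

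Kdm1a, the demethylase that corin blocks, was detected in every lineage of every sample. Levels are given as CPM, from the UMIs of a gene and of all genes in that lineage and sample, as mean ± SD over the 6 samples of both treatments. The highest means were in melanoma cells (88.3 ± 12.3), T cells (87.9 ± 8.6) and NK cells (83.1 ± 29.6). Fibroblasts (70.0 ± 9.92), monocytes (69.4 ± 2.66), DCs (65.5 ± 6.36), neutrophils (64.0 ± 23.2) and B cells (63.5 ± 20.4) followed, and macrophages were lowest (54.0 ± 3.54). The ratio of the highest to the lowest lineage was 1.64, the smallest ratio of any member. The 6 melanoma values ran from 75.8 to 109 and the 6 macrophage values from 48.6 to 58.8, so these 2 lineages did not overlap. Every pair of neighbours in the order did overlap. T cells (76.7 to 101), fibroblasts (62.5 to 89.3) and monocytes (65.0 to 72.4) also lay above all macrophage values. Melanoma cells and T cells lay above all monocyte and DC values, the DCs running from 55.8 to 74.2.

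**Figure D1:**
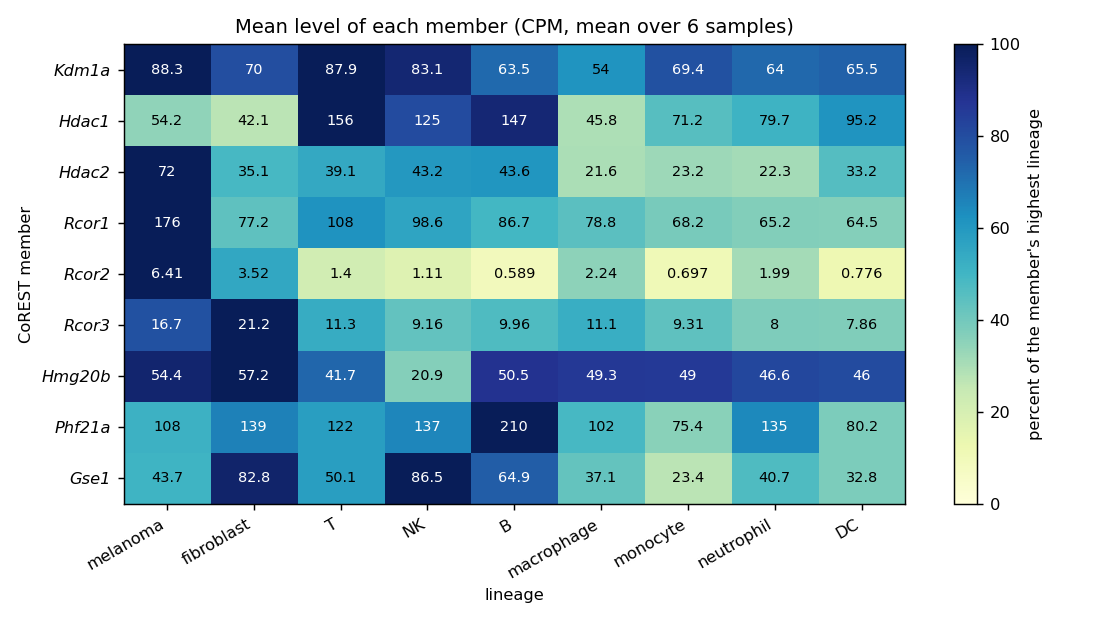
Mean CPM of the 9 CoREST members (rows) in 9 lineages (columns) over 6 samples, with the color giving the percent of that member's highest lineage. Kdm1a varied least between lineages, Hdac1 was highest in T cells (156) and Hdac2, Rcor1 and Rcor2 were highest in melanoma cells (72.0, 176 and 6.41).

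Hdac1 and Hdac2, the deacetylases, were distributed differently from Kdm1a and from each other. Hdac1 was high in lymphocytes, with 156 ± 19.5 CPM in T cells and 125 ± 25.6 in NK cells. In B cells the αPD-1 samples had 129, 154 and 131 CPM, while the αPD-1 + corin samples ranged from 32.8 to 351, the last from 12 cells. Lower means were found in DCs (95.2 ± 14.2), neutrophils (79.7 ± 41.2), monocytes (71.2 ± 13.8), melanoma cells (54.2 ± 6.02), macrophages (45.8 ± 4.46) and fibroblasts (42.1 ± 13.9). The lowest T cell value (134) was above the highest melanoma, macrophage and fibroblast values (59.4, 51.2 and 67.7).

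Hdac2 had its highest mean in melanoma cells, at 72.0 ± 6.96 CPM with samples between 63.8 and 80.1. B cells (43.6), NK cells (43.2), T cells (39.1 ± 4.20), fibroblasts (35.1 ± 11.8) and DCs (33.2) were intermediate. Monocytes (23.2), neutrophils (22.3) and macrophages (21.6 ± 2.40) were lowest. The T cell and macrophage samples all lay below the lowest melanoma sample, with highest values of 43.8 and 25. One B cell value reached 70.2, again in the sample with 12 B cells.

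**Figure D2:**
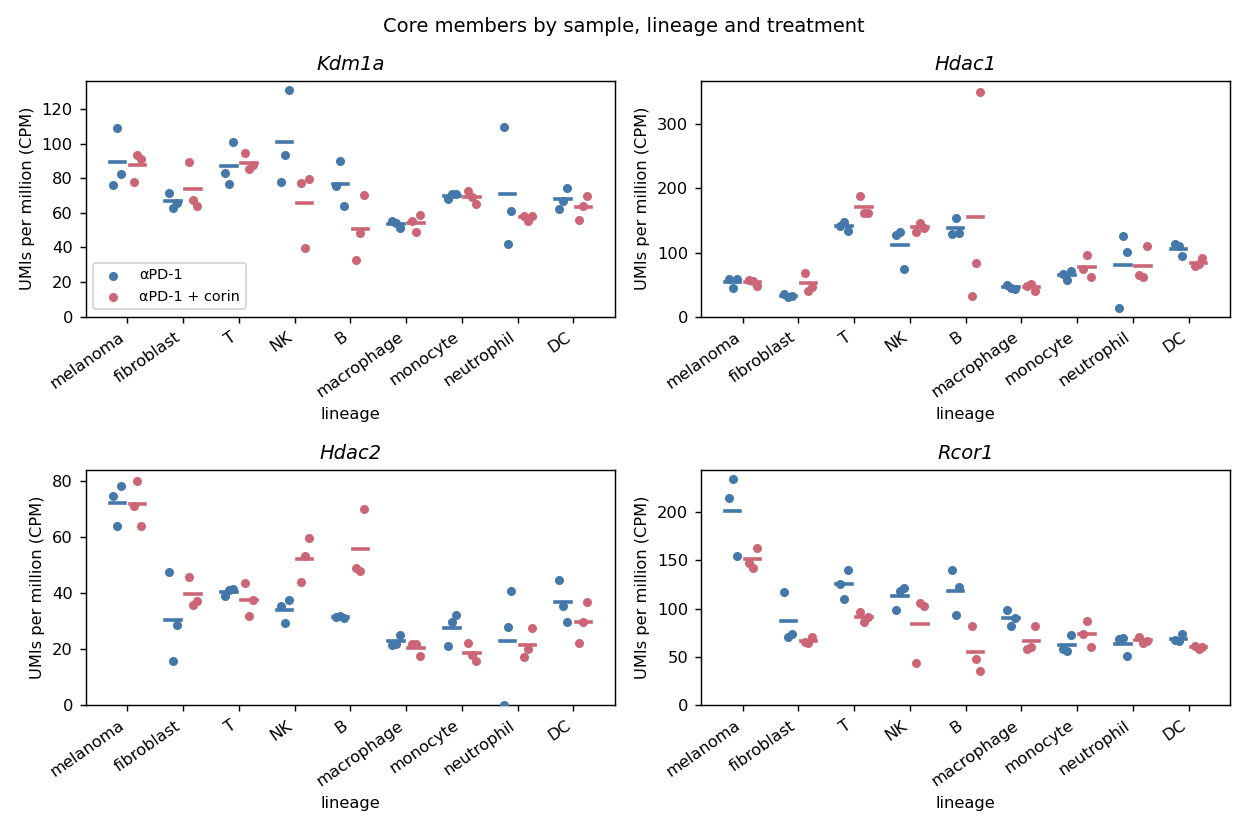
CPM of Kdm1a, Hdac1, Hdac2 and Rcor1 in each sample (points) by lineage (x axis) and treatment (color), with the group mean as a bar. Hdac2 in melanoma cells lay between 63.8 and 80.1 in all 6 samples, and Hdac1 in T cells between 134 and 189.

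The share of Hdac1 among Hdac1 and Hdac2 UMIs gives the balance of the pair within each lineage. Capture can differ between genes, so the share is compared between lineages and not read as a ratio of proteins. Melanoma cells had the lowest share, 42.9% ± 1.49, with samples between 41.0% and 44.7%. Fibroblasts had 54.9% ± 8.15 and macrophages 68.0% ± 2.71. DCs (74.4% ± 2.68), NK cells (74.2% ± 5.48), monocytes (75.2% ± 6.77), T cells (79.8% ± 2.61) and neutrophils (81.3% ± 9.88) were higher, and B cells under αPD-1 alone were at 81.3% ± 1.36. The 6 macrophage values (62.9% to 70.0%) and the 6 T cell values (76.4% to 83.6%) overlapped neither each other nor the melanoma values. Without the limit of 4000 genes per cell, which brought the melanoma cells from 1882 to 7276, the melanoma share was 51.3% ± 0.908, still under the lowest macrophage sample (61.4%) but not under the lowest fibroblast sample (51.1%).

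**Figure D3:**
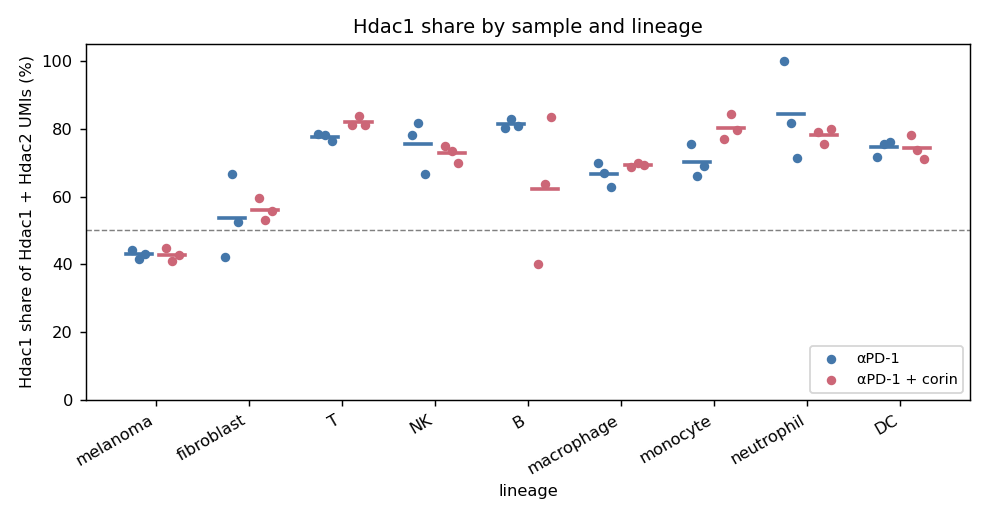
Share of Hdac1 among Hdac1 and Hdac2 UMIs (percent, y axis) in each sample (points) by lineage and treatment (color), with group means as bars and a dashed line at equal UMIs. All 6 melanoma samples lay between 41.0% and 44.7%, and all 6 T cell samples between 76.4% and 83.6%.

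Among the scaffolds, Rcor1 had its highest level in melanoma cells, with 176 ± 38.5 CPM. The lowest melanoma sample (143) was above the highest T cell sample (141), the next lineage in the order (108 ± 21.2). The remaining lineages had means between 98.6 (NK cells) and 64.5 (DCs), including macrophages at 78.8 ± 16.2. Rcor1 made up most of the scaffold UMIs everywhere, at 88.0% ± 3.16 in melanoma cells, 89.4% ± 2.13 in T cells, 85.3% ± 2.00 in macrophages and 75.5% ± 8.22 in fibroblasts.

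Rcor2 was scarce, with 285 UMIs in all and 19 of the 54 sample and lineage values at 0. Melanoma cells had 8.84, 2.66 and 3.22 CPM under αPD-1 alone and 9.95, 5.68 and 8.12 with corin added. Macrophages had 2.24 ± 0.815 CPM, and melanoma cells and macrophages were the only lineages with a UMI in all 6 samples. The second αPD-1 melanoma value rests on 1 UMI, with an exact 95% Poisson interval of 0.0673 to 14.8 CPM that covers counting error only. Where no UMI was found, as in the αPD-1 monocytes, a count of 0 allows up to 2.69 to 3.34 CPM per sample. Without the limit of 4000 genes per cell, melanoma cells had 8.04 ± 0.657 CPM.

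Rcor3 was highest in fibroblasts (21.2 ± 8.20 CPM) and melanoma cells (16.7 ± 2.06), which overlapped. Melanoma values (15.0 to 20.6) did not overlap those of T cells (7.96 to 14.4), and the remaining means lay between 7.86 and 11.3. Rcor3 accounted for 20.9% ± 6.66 of scaffold UMIs in fibroblasts and 8.64% ± 1.90 in melanoma cells.

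Of the other subunits, Hmg20b was level across lineages, with means between 41.7 and 57.2 CPM in 8 of them and 20.9 ± 11.2 in NK cells. Phf21a was highest in B cells, at 234, 261 and 277 CPM under αPD-1 alone and 180, 168 and 140 with corin added. Its means then ran from 139 ± 33.3 in fibroblasts to 80.2 ± 18.7 in DCs and 75.4 ± 17.7 in monocytes, with every neighbouring pair overlapping. Gse1 was highest in NK cells (86.5) and fibroblasts (82.8 ± 39.9) and lowest in monocytes (23.4), whose samples lay below all DC samples (32.8).

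Melanoma cells were then set against the mean of the 7 immune lineages within each sample, as a description. Rcor1 was higher by 1.15 ± 0.25 on the log2 scale, and above every single immune lineage in 6 of 6 samples. Hdac2 was higher by 1.30 ± 0.36, above every immune lineage in 5 of 6 samples. Rcor3 (1.05 ± 0.37), Rcor2 (1.92 ± 0.83) and Kdm1a (0.38 ± 0.27) were also above the immune mean in 6 of 6 samples. Hdac1 was below it in all 6 (-0.71 ± 0.37). Phf21a (-0.11 ± 0.53) and Gse1 (0.06 ± 0.72) had no common direction. Most melanoma cells carried over 4000 genes and were removed by the upper limit of the main filter. Without that limit melanoma cells had 92.5 ± 4.15 CPM of Kdm1a, 71.5 ± 5.19 of Hdac1, 67.9 ± 5.04 of Hdac2, 141 ± 9.28 of Rcor1, 65.6 ± 5.19 of Phf21a (108 ± 31.6 with the limit) and 29.2 ± 1.62 of Gse1 (43.7 ± 12.6 with it).

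The share of Kdm1a UMIs that each lineage held lay near its share of all UMIs. Its mean was below it in macrophages and above it in T cells and melanoma cells in both groups. In the αPD-1 samples, macrophages held 27.7% ± 4.85 of the Kdm1a UMIs of the 9 lineages (35.5% ± 5.05 of all UMIs), T cells 24.9% ± 2.33 (20.2% ± 4.39), B cells 17.2% ± 1.60 (16% ± 4.33) and melanoma cells 7.31% ± 2.66 (5.98% ± 2.81). In the αPD-1 + corin samples, macrophages held 35.5% ± 11.5 (42.8% ± 11.9 of all UMIs), melanoma cells 16.6% ± 3.53 (12.7% ± 3.76), T cells 15.5% ± 15.8 (12.4% ± 13.7), neutrophils 12% ± 13.9 (13.1% ± 14.8) and B cells 0.200% ± 0.141 (0.262% ± 0.162). The CD45 selection and the filters can set these shares.

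The share of cells with a UMI was compared after thinning each cell to 1000 UMIs, since the median depth ran from 1692.5 UMIs in B cells to 7431 in fibroblasts. Kdm1a was then found in 5.70% ± 2.48 of fibroblasts to 9.67% ± 5.68 of NK cells, with melanoma cells at 8.15% ± 1.81 and T cells at 8.93% ± 1.49. Unthinned, the Kdm1a shares were 33.5% ± 1.75 in melanoma cells and 23.4% ± 3.81 in T cells. Hdac1 was found in 12.3% ± 1.30 of T cells against 4.48% ± 0.531 of macrophages, or 32.2% and 17.6% unthinned. Hdac2 was found in 7.17% ± 1.51 of melanoma cells against 2.29% ± 0.520 of macrophages, or 30.4% and 8.98% unthinned. No lineage here is known to lack these subunits, so the share that free RNA gives was not measured for them. For scale, the 7 melanoma markers summed to 66.1 CPM in T cells and 91.4 in macrophages.

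Cycling cells were compared with other cells of the same lineage. A cell with at least 3 UMIs of 10 mitotic genes was called cycling and a cell with 0 was called other, which left 674 of 4094 T cells, 1573 of 10234 macrophages and 424 of 1882 melanoma cells between the classes. In T cells, Hdac1 was 204 ± 15.8 CPM in cycling and 124 ± 23.7 in other cells, higher in 6 of 6 samples. Phf21a was 56.2 ± 15.6 against 170 ± 71.8 and Rcor1 82.7 ± 15.4 against 130 ± 25.2, both lower in all 6 samples. Kdm1a differed little, at 87.9 ± 17.9 against 86.9 ± 6.30.

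In melanoma cells, Hdac2 was 84.9 ± 6.79 CPM in cycling and 53.0 ± 16.3 in other cells and Hdac1 60.3 ± 6.80 against 44.7 ± 8.81, each higher in 6 of 6 samples. Phf21a (80.3 ± 46.2 against 145 ± 45.2) and Gse1 (36.3 ± 18.1 against 59.8 ± 19.9) were lower in all 6. In macrophages, Phf21a was 66.2 ± 10.4 against 113 ± 19.9, lower in all 6, and Hdac2 25.8 ± 2.88 against 19.5 ± 3.69, higher in 5 of 6. Cycling cells held more UMIs, with medians of 6507 against 1996 in T cells, 6100 against 3479.5 in melanoma cells and 6361 against 3160 in macrophages. After thinning, with a threshold of 2 UMIs, Hdac1 in T cells and Hdac2 in melanoma cells were still higher in 6 of 6 samples (by 0.70 ± 0.18 and 0.64 ± 0.16 on the log2 scale), and Phf21a was lower in 6 of 6 in both. Rcor1 in T cells (-0.35 ± 0.54) and Phf21a in macrophages (-0.51 ± 0.34) were then higher in 1 of 6 samples. Hdac1 in melanoma cells was higher in 5 of 6. The part of the low-ribosomal cells, and of the naive-like T cells described below, in these differences was not tested.

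Cells with under 5% ribosomal protein UMIs had a different profile of members. In melanoma cells of the 5 samples with enough of them, Phf21a was 293 ± 75.6 CPM in low-ribosomal and 65.0 ± 8.83 in other cells, and Rcor1 was 361 ± 70.5 against 130 ± 10.0. Gse1 was 104 ± 47.3 against 26.0 ± 6.58, while Hdac2 was 47.9 ± 10.8 against 77.0 ± 6.66. T cells had the same order for Phf21a (333 ± 192 against 110 ± 36.9), Rcor1 (262 ± 99.5 against 98.6 ± 12.5), Gse1 (119 ± 42.8 against 44.3 ± 6.84) and Hdac1 (91.4 ± 28.5 against 153 ± 11.7). In macrophages Phf21a (142 ± 31.0 against 86.9 ± 7.94) and Rcor1 (97.9 ± 24.2 against 71.3 ± 12.8) were higher in low-ribosomal cells of 6 of 6 samples. Both were also higher in 3 of 3 samples of B cells and of fibroblasts. Neutrophils differed, with Phf21a higher in 3 of 3 samples (197 ± 20.7 against 103 ± 27.5). There Rcor1 (53.8 ± 23.6 against 71.3 ± 3.21) was higher in 1 of 3 and Gse1 (42.8 ± 14.2 against 48.3 ± 14.8) in 0 of 3.

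For 4 members, the genes with the most similar profile were found by Pearson's r of the mean log2(CPM + 1) over the 9 lineages, among 10025 genes. These points share libraries and depth, so r is given as a description. Kdm1a was most like Sntb1, Kars and Bzw2 (r = 0.92 for each). Hdac1 was most like the ribosomal protein genes Rps16, Rplp2 and Rps23 (0.98 for each). Hdac2 was most like Nomo1, Nfx1 and Ubac1 (0.98, 0.98 and 0.97), and Rcor1 was most like Fam120a, Paip1 and Zfr (0.97, 0.95 and 0.95). Among the members, r was 0.80 between Hdac2 and Rcor1, 0.75 between Kdm1a and Rcor1, 0.68 between Kdm1a and Hdac2 and 0.24 between Hdac1 and Hdac2.

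The treatments were compared within each lineage by edgeR's quasi-likelihood test on counts summed per sample, with Benjamini-Hochberg adjusted p over all genes tested in that lineage and a threshold of 0.05. Corin acts on the proteins, and the question here is whether transcripts of its target differed between the groups. Of 81 pairs of member and lineage, 66 passed the filter on low counts and 1 passed the threshold, Phf21a in T cells. Another 8 pairs had an unadjusted p under 0.05. With Phf21a counted, these were 3 of 8 members tested in fibroblasts, 3 of 8 in T cells, 2 of 7 in B cells and 1 of 7 in DCs. Among all genes tested, 1618 of 6904 had such a p in fibroblasts, 3185 of 9998 in T cells, 1091 of 7979 in B cells and 1060 of 8645 in DCs. Across all genes, the percent past the threshold was 0 in melanoma cells, 2.13 in fibroblasts, 17.5 in T cells, 1.11 in NK cells, 1.15 in B cells, 0.0681 in macrophages, 1.39 in monocytes, 0.314 in neutrophils and 0.937 in DCs. These shares rest in part on αPD-1 + corin replicate 3, without which the genes called higher and lower went from 4 and 4 to 1317 and 1341 in macrophages, from 58 and 47 to 328 and 279 in monocytes, from 14 and 67 to 389 and 247 in DCs and from 69 and 78 to 470 and 442 in fibroblasts. In melanoma cells 681 of 9464 genes had an unadjusted p under 0.05, and DESeq2 found 3 genes higher and 4 lower there. Fold changes are αPD-1 + corin relative to αPD-1 on the log2 scale, and 22 of the 66 were above 0 and 44 below. Their median over the members was -0.01 in melanoma cells, -0.10 in T cells and -0.00489 in macrophages, beside -0.00691, -0.00167 and 0.00493 over all genes tested. In B cells the median over all genes was -0.14.

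**Figure D4:**
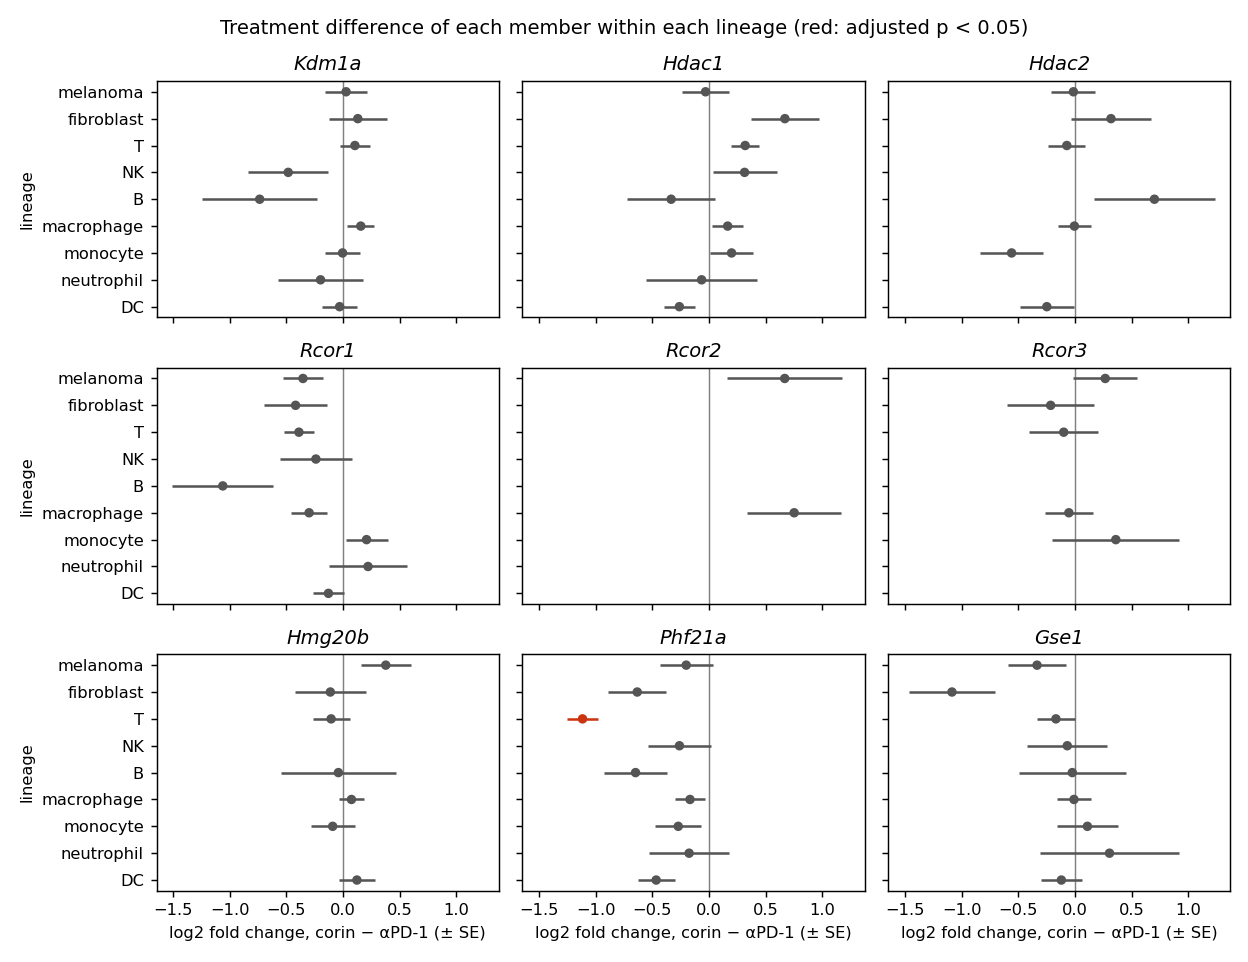
Log2 fold change of αPD-1 + corin relative to αPD-1 (x axis, points, with ± SE as lines) of each member in each lineage (y axis) where it was tested, with red marking an adjusted p under the threshold. Phf21a in T cells (-1.12) is the only red point, and all 9 Phf21a points lie below 0.

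Kdm1a did not pass the threshold in any lineage. Its fold changes were 0.03 (SE 0.19, edgeR adjusted p = 0.992) in melanoma cells, 0.10 (SE 0.13, adjusted p = 0.643) in T cells and 0.16 (SE 0.12, adjusted p = 0.485) in macrophages, and they ranged from -0.74 in B cells to 0.16 over the 9 lineages. The melanoma values were 75.8, 109 and 82.6 CPM under αPD-1 alone and 78.0, 93.1 and 90.9 with corin added, which overlap.

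Neither deacetylase passed the threshold. Hdac1 in T cells had 142, 148 and 134 CPM under αPD-1 alone and 189, 162 and 162 with corin added, groups that did not overlap, with a fold change of 0.32 (SE 0.12, edgeR adjusted p = 0.0888). In naive-like T cells of the αPD-1 samples it was 93.1, 102 and 117 CPM. In other T cells it was 168, 166 and 141 CPM under αPD-1 alone and 192, 164 and 163 with corin added, which overlap. In fibroblasts Hdac1 had 34.8, 31.3 and 31.4 CPM against 67.7, 40.6 and 46.8 (0.67, SE 0.30, adjusted p = 0.199), from 39 to 63 cells in each αPD-1 sample. Hdac2 in melanoma cells had a fold change of -0.01 (SE 0.19, adjusted p = 0.998).

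The Hdac1 share of the pair was tested in the 5 lineages with at least 20 UMIs in every sample, by a two-sided exact permutation test over samples whose smallest possible p is 0.1. In T cells it was 77.7% ± 1.14 under αPD-1 alone and 82.0% ± 1.42 with corin added (exact p = 0.1, adjusted 0.25). In T cells other than naive-like, Hdac1 and Hdac2 UMIs were 266 and 58, 374 and 89, and 175 and 49 under αPD-1 alone. With corin added they were 82 and 19, 245 and 48, and 853 and 199, so the shares overlapped between the groups. The part of the naive-like cells in the T cell difference was not tested. Monocytes had 70.2% ± 4.97 against 80.3% ± 3.72 (exact p = 0.1, adjusted 0.25). Macrophages (a difference of 2.73 percentage points, exact p = 0.3), melanoma cells (-0.05, exact p = 0.9) and DCs (-0.25, exact p = 0.9) overlapped between the groups. The Rcor1 share of the scaffolds was 90.7% ± 1.71 against 85.4% ± 1.03 in melanoma cells and 87.0% ± 0.930 against 83.6% ± 0.688 in macrophages (exact p = 0.1 and adjusted 0.3 for both, over 6 lineages). None of these could pass a threshold of 0.05 in a design of this size.

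Rcor1 had fold changes below 0 in 7 of 9 lineages and passed the threshold in none. In T cells it had 126, 110 and 141 CPM under αPD-1 alone and 96.8, 86.5 and 91.1 with corin added, without overlap (-0.39, SE 0.13, edgeR adjusted p = 0.0523). Without αPD-1 replicate 2 it passed (-0.47, adjusted p = 0.036). Rcor1 was 185, 157 and 210 CPM in naive-like T cells, described below, of the αPD-1 samples. In other T cells it was 93.1, 91.5 and 113 CPM under αPD-1 alone and 98.4, 84.5 and 90.8 with corin added, which overlap. Macrophages had 98.7, 82.4 and 90.9 CPM against 58.3, 60.5 and 81.9 (-0.30, SE 0.16, adjusted p = 0.322), and passed without αPD-1 + corin replicate 3 (-0.46, adjusted p = 0.0228), a fit that called 1317 genes higher and 1341 lower of 11926, against 4 and 4 of 11747 with all samples. Melanoma cells had 215, 234 and 155 CPM against 148, 143 and 163 (-0.35, SE 0.18, adjusted p = 0.703), which overlap. Low-ribosomal cells, which held more Rcor1, made up 46.2%, 36% and 36.1% of macrophages under αPD-1 alone and 17.2%, 28.0% and 44.1% with corin added, and 28.5%, 29.8% and 11.5% of melanoma cells against 6.27%, 13.6% and 16.1%. Their part in these differences was not tested.

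Rcor2 was tested in melanoma cells (0.67, SE 0.51, edgeR adjusted p = 0.759) and macrophages (0.75, SE 0.42, adjusted p = 0.344) and did not pass in either. Gse1 in fibroblasts had 128, 107 and 103 CPM under αPD-1 alone and 43.9, 25 and 90.2 with corin added, without overlap (-1.09, SE 0.38, adjusted p = 0.127), and passed without αPD-1 + corin replicate 3 (-1.65, adjusted p = 0.0135), a fit that called 470 genes higher and 442 lower of 7099, against 69 and 78 of 6904 with all samples. Low-ribosomal cells were 60.3%, 66.7% and 31.2% of fibroblasts under αPD-1 alone and 3.27%, 8.86% and 47.6% with corin added. Rcor3 and Hmg20b passed in no lineage, with fold changes from -0.21 to 0.36 and from -0.11 to 0.38.

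Phf21a, the reader of unmethylated histone H3, fell in T cells. It had 183, 149 and 172 CPM under αPD-1 alone and 87.6, 73.9 and 68.2 with corin added, with means of 168 ± 17.1 and 76.6 ± 9.94. The groups did not overlap, and the fold change was -1.12 (SE 0.13, edgeR adjusted p = 0.000159). Of all genes tested in T cells, 11.2% were called lower. Phf21a was below 0 in the other 8 lineages too, from -0.17 in macrophages to -0.65 in B cells, with adjusted p from 0.168 to 0.913. In B cells the values were those given above, without overlap, and in fibroblasts they were 176, 172 and 157 CPM against 98.6, 109 and 122. Low-ribosomal cells, which held more Phf21a in both lineages, were 16.3%, 16.6% and 12.4% of B cells under αPD-1 alone. With corin added they were 0%, 4.26% and 0%. Of fibroblasts they were 60.3%, 66.7% and 31.2% under αPD-1 alone and 3.27%, 8.86% and 47.6% with corin added, which overlap. Their part in these differences was not tested.

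The mix of T cells differed between the groups. Naive-like T cells, 2 sub-clusters with at least 3 of 6 naive markers such as Lef1 and Tcf7 at raised levels, were 51.6%, 42.7% and 41.6% of T cells under αPD-1 alone and 2.86%, 3.53% and 1.5% with corin added (1057 of 2316 cells against 36 of 1778). In the αPD-1 samples, Phf21a was 329, 281 and 320 CPM in naive-like cells and 103, 95.5 and 113 in other T cells. In other T cells of the αPD-1 + corin samples it was 89.0, 71.1 and 68.1 CPM, again below each αPD-1 value. A fit on T cells other than naive-like gave -0.43 (edgeR adjusted p = 0.196), which did not pass. The naive-like cells were too few with corin added (5, 12 and 19) for a comparison within them.

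The pair of naive-like sub-clusters was unlike in quality. One of 739 cells carried all 6 naive markers, had a Cd3 UMI in 95.1% of cells and no low-ribosomal cells, and had 222 ± 7.55 CPM of Phf21a under αPD-1 alone. Another of 354 cells carried 3 naive markers, had a Cd3 UMI in 38.7% of cells and 85.0% low-ribosomal cells, and had 544 ± 21.8 CPM. Rcor1 was 131 ± 10.5 CPM in the first and 314 ± 42.4 in the second, and Hdac1 97.8 ± 11.3 and 123 ± 15.9. Low-ribosomal cells were 20.0%, 13.4% and 17.7% of T cells under αPD-1 alone and 2.86%, 6.18% and 1.66% with corin added. Phf21a in T cells passed without them (-0.88, edgeR adjusted p = 0.00068) and in T clusters where at least 80% of cells had a Cd3 UMI (-0.82, adjusted p = 0.000924).

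**Figure D5:**
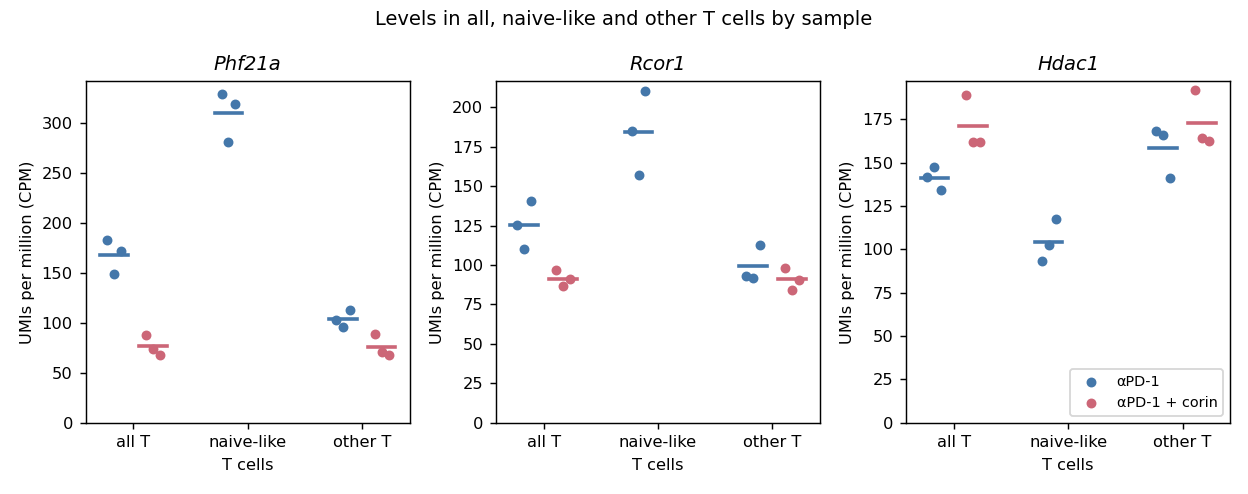
CPM of Phf21a, Rcor1 and Hdac1 in all T cells, naive-like T cells and other T cells (x axis) of each sample (points, colored by treatment), with group means as bars and naive-like cells shown for the αPD-1 samples only. Phf21a was 281 to 329 in naive-like and 95.5 to 113 in other T cells of the αPD-1 samples, and Hdac1 was lower in naive-like (93.1 to 117) than in other T cells (141 to 168).

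Whether the change differed between lineages was tested by the interaction of lineage and treatment in edgeR, with a term for each sample. Between T cells and macrophages, Phf21a differed by -0.90 (SE 0.19, adjusted p = 0.0142), and it was the only one of 8 members tested that did, while 2.59% of all genes did. The difference did not pass for T cells other than naive-like (-0.24, adjusted p = 0.908), nor in T clusters with a Cd3 UMI in at least 80% of cells (-0.63, adjusted p = 0.123). Nor did it pass without αPD-1 replicate 1 (-0.94, adjusted p = 0.0504) or αPD-1 replicate 2 (-0.87, adjusted p = 0.0837). Between melanoma cells and macrophages none of the 9 members differed (adjusted p of 0.96 or more) and 0.016% of all genes did.

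To set aside the mix of lineages, the mean of log2(CPM + 1) over the 7 lineages with at least 20 cells in every sample was compared between the groups, giving each lineage the same weight. Kdm1a was 6.24 ± 0.0883 under αPD-1 alone and 6.15 ± 0.103 with corin added, a difference of -0.09 (two-sided exact permutation p = 0.4, adjusted 0.514). Phf21a (-0.51), Gse1 (-0.31), Rcor1 (-0.30), Hmg20b (0.23) and Rcor2 (0.63) had groups that did not overlap, with an exact p of 0.1 for each, the smallest the design allows, and 0.18 after adjustment over the 9 members. The Rcor2 value rests in part on lineages near the floor. NK cells held 1 Rcor2 UMI in all and monocytes 2, with 0 CPM in both under αPD-1 alone. Hdac1 (0.16, exact p = 0.2), Hdac2 (-0.00482, exact p = 1) and Rcor3 (0.000442, exact p = 1) overlapped. Groups did not overlap for 5 of 9 members and for 27% of the 12819 genes compared. Without low-ribosomal cells the difference was 0.03 for Gse1, -0.17 for Rcor1 and -0.36 for Phf21a, and without the limit of 4000 genes per cell it was -0.01 for Hmg20b.

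Genes around the complex were followed in the same fits. Of 9 further proteins found in CoREST complexes, 8 were tested in T cells, 0 rose and 4 fell, among them Rreb1 (-1.05, edgeR adjusted p = 0.00398) and Lcor (-0.64, adjusted p = 0.00618). Neither passed without low-ribosomal cells (-0.62, adjusted p = 0.0674, and -0.42, adjusted p = 0.0828) or in T clusters with a Cd3 UMI in at least 80% of cells (-0.46, adjusted p = 0.223, and -0.40, adjusted p = 0.108). Their median was -0.45 beside -0.00167 over all genes in T cells, 6.34% of which rose and 11.2% fell. None of these partners passed in any other lineage.

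Of 11 DNA-binding factors that recruit LSD1 or CoREST, 6 were tested in T cells, and 2 rose and 2 fell. Over all genes tested in T cells, 6.34% rose and 11.2% fell. Zeb2, a factor of effector T cells, rose from 93.4 ± 1.46 to 140 ± 17.9 CPM (0.69, edgeR adjusted p = 0.00232), and Prdm1, which encodes BLIMP1, rose by 0.64 (adjusted p = 0.00904). Zeb1 fell from 264 ± 22.7 to 132 ± 20.7 CPM (-0.96, adjusted p = 0.00052), and Runx1 fell (-0.68, adjusted p = 0.0467). Runx1 did not pass without low-ribosomal cells (-0.33, adjusted p = 0.388) or in the Cd3 clusters (-0.29, adjusted p = 0.455). Leaving out αPD-1 + corin replicate 3 also ended its call (-0.38, adjusted p = 0.22). The median of the 6 was 0.25. In B cells, where 0.301% of genes rose and 0.852% fell, 1 of 5 factors fell, Zeb2 (-1.99, adjusted p = 0.00141), from 292 ± 37.8 to 57.9 ± 54.4 CPM. Those values rest on 12 to 47 B cells in each αPD-1 + corin sample, and without αPD-1 replicate 1 the call was lost (-1.88, adjusted p = 0.0657).

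Of 28 genes of other class I deacetylases and their complexes, all were tested in T cells. There 6.34% of all genes rose and 11.2% fell, and of the 28 listed genes 1 rose and 3 fell. Mta2 of NuRD rose (0.45, edgeR adjusted p = 0.0442), and Hdac8 (-0.996, adjusted p = 0.000938), Tbl1x of NCoR/SMRT (-0.97, adjusted p = 0.000795) and Gatad2b of NuRD (-0.46, adjusted p = 0.0349) fell. The median of the list was 0.03 in T cells, and no gene of it passed in another lineage.

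Of 10 genes that are known to rise with deacetylase or LSD1 inhibitors in other cells, 8 were tested in T cells, 3 rose and 1 fell. Of all genes tested in T cells, 6.34% rose and 11.2% fell. Cdkn1a, which encodes the cell cycle inhibitor p21, rose from 53.2 ± 3.50 to 96.0 ± 16.7 CPM (0.85, edgeR adjusted p = 0.00155). H1f0, a linker histone, rose by 0.92 (adjusted p = 0.0304) and Itgam, a myeloid integrin, by 0.99 (adjusted p = 0.0494), while Txnip fell (-0.65, adjusted p = 0.0103). The median of the 8 was 0.00458. Itgam stood at 8.80 ± 2.88 and 20.4 ± 8.55 CPM, and other cell types' markers in T cells moved with it. All 8 macrophage markers were detected in both groups and summed to 109 to 165 CPM under αPD-1 alone and 187 to 378 with corin added. The 7 neutrophil markers summed to 6.92 to 27.1 against 55.5 to 399 CPM, with 1 of them at 0 under αPD-1 alone, and the 7 monocyte markers to 744 to 784 against 1048 to 1231. The 7 B cell markers went the other way, at 149 to 292 against 9.85 to 31.0. The part of these markers in the T cell results was not tested.

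In B cells Cd86, a costimulatory ligand, rose from 181 ± 23.4 to 387 ± 93.6 CPM (1.14, edgeR adjusted p = 0.00536), 1 of 7 genes of that list tested. It did not pass without αPD-1 replicate 1 (1.21, adjusted p = 0.057), αPD-1 + corin replicate 1 (0.92, adjusted p = 0.172) or αPD-1 + corin replicate 2 (0.92, adjusted p = 0.166). The αPD-1 + corin values rest on 47, 47 and 12 B cells. In B cells the monocyte markers summed to 829 to 1133 CPM under αPD-1 alone and 684 to 3019 with corin added, the neutrophil markers to 3.11 to 38.1 against 0 to 937, and the macrophage markers to 393 to 523 against 176 to 671. With corin added, 1 of 7 monocyte, 2 of 7 neutrophil and 1 of 8 macrophage markers were at 0, and under αPD-1 alone 1 neutrophil marker was. Their part in the Cd86 result was not tested. In fibroblasts, where 0.999% of genes rose, Clu, which encodes the chaperone clusterin, rose from 0.611 ± 1.06 to 37.3 ± 6.05 CPM (adjusted p = 0.00336), 1 of 8 tested. Its αPD-1 level was near the floor, with an SD above its mean, from 63, 39 and 48 fibroblasts. The filter on low counts goes by group, and Clu passed it only through the αPD-1 + corin samples, where it was high. Its call is therefore given as a description only. Without low-ribosomal cells Clu passed narrowly (edgeR adjusted p = 0.0463). In melanoma cells and macrophages none of the 7 and 9 genes tested passed, with medians of 0.32 and 0.28 beside -0.00691 and 0.00493 over all genes. None of the T cell genes named from these 4 lists passed in T cells other than naive-like, where edgeR adjusted p ran from 0.0856 to 0.795. Mta2, Gatad2b, H1f0 and Itgam also failed to pass without low-ribosomal cells (0.40, -0.34, 0.74 and 0.94, with adjusted p from 0.0811 to 0.137) and in the Cd3 clusters. Leaving out single samples ended the calls of these 4 genes and of Runx1 in 4 or 5 of 6 fits each, that of Prdm1 without αPD-1 replicate 1 or αPD-1 + corin replicate 3 (0.54 and 0.56), and that of Lcor without αPD-1 + corin replicate 3 (-0.54).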

How the data were processed

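The authors captured CD45-selected cells from cryopreserved tumor suspensions with a 10x Genomics 5′ kit, loading about 23000 cells per sample, and deposited raw UMI counts per gene and barcode. The file header names Cell Ranger 8.0.1, and the submitters' processing notes list Cell Ranger 8.0, Seurat 5.0.11 and GRCm39. Of the 32285 gene IDs, 31674 were found in GENCODE vM39, from which coordinates were taken by ID. Counts were filtered at 600 to 4000 genes and at most 10% mitochondrial UMIs per cell. Doublets were removed with Scrublet (scanpy 1.11.5) at 0.4% per 1000 barcodes. Clustering used SCTransform (sctransform 0.4.2, Seurat 5.3.0), 2891 variable genes without the members, listed genes and markers, 20 principal components and resolution 0.8. T and NK clusters were clustered again. A cluster took a type's name with at least 3 of its markers raised 1.5-fold over other clusters and seen in 10% of cells.

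UMIs were summed per sample and lineage, and fitted with edgeR 4.0.16 (TMM, filterByExpr, quasi-likelihood F test). DESeq2 1.42.0, RLE size factors, no filter, other cell filters and resolutions, and leaving out each replicate were alternatives. On simulated counts the fits were checked for known changes. The samples were fitted as unpaired, since the labels name no pairing by replicate number. Correlations of same-numbered deviations ran from -0.153 to 0.125, over too few pairs to exclude one. The replicate number as a block was an alternative. Named are all members, up to 3 genes per list and direction in each lineage, and 3 most similar genes for 4 members. The values of 1 gene that this rule names are not reported here. The members and lists were chosen with earlier results of these data known. Intervals and limits from 0 counts cover counting error only.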

Additional observations from a re-analysis of the deposited data

Results flagged for a closer look

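The treatment difference of Phf21a was not alike in T cells and macrophages. It was -1.12 on the log2 scale in T cells and -0.17 in macrophages, each from a fit of that lineage alone. A joint fit of both lineages, with a term for each sample, gave a difference of -0.90, which passed the edgeR interaction test (SE 0.19, adjusted p = 0.0142). The share of naive-like T cells, which held more Phf21a than other T cells in the αPD-1 samples, was 45.6% under αPD-1 alone and 2.02% with corin added. In T cells other than naive-like the difference was -0.24 (adjusted p = 0.908).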

How the results depend on the processing

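Over 77 results, 607 of 777 alternatives kept direction and side of the threshold, 109 lost the threshold, 40 moved and 21 turned direction. Several were chosen after seeing the data: at least 5% ribosomal protein UMIs, T clusters with Cd3 in 80% of cells, T cells other than naive-like, and all alternatives of the interaction and the listed genes. Phf21a in T cells passed under all alternatives but the fit without naive-like cells (-0.43), and 0 members were then lower. Leaving out one replicate gave 1 to 3 members lower and 0 higher, and resolution 0.4 gave 2 lower, adding Rcor1 in T cells (-0.40, edgeR adjusted p = 0.0488). For the 11 listed genes lower, the count was 22 with no filter, 6 at 5% mitochondrial UMIs, 7 with mixed clusters, 6 without low-ribosomal cells, 5 in Cd3 clusters, 1 without naive-like cells and 7 to 24 leaving out one replicate. For the 8 higher it was 15, 3 with no upper gene limit, 5 at resolution 1.2, 4 with mixed clusters, 5 without low-ribosomal cells, 5 in Cd3 clusters, 2 without naive-like cells and 4 to 15 leaving out one replicate. Members differing between T cells and macrophages were 0 to 1 leaving out one replicate (Phf21a between -1.03 and -0.86), and 0 with no upper limit (-0.84), at 5% mitochondrial UMIs (-0.77), at resolution 1.2 (-0.64), without naive-like cells (-0.24) and in Cd3 clusters (-0.63).

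The mean of Hdac2 over lineages turned to 0.0366 at 5% mitochondrial UMIs, 0.00563 and 0.0460 at resolutions 0.4 and 1.2 and 0.00286 with a pseudocount of 10, and ran from -0.083 to 0.0431 leaving out one replicate. Rcor3 turned to -0.0319 and -0.0048 at resolutions 0.4 and 1.2 and ran from -0.11 to 0.13. Hmg20b turned to -0.0105 with no upper limit, and Gse1 to 0.0283 without low-ribosomal cells. The Hdac1 share difference ran from -0.97 to 0.88 points in melanoma cells and from -2.13 to 1.35 in DCs. With the replicate block Phf21a in T cells was -1.08 (edgeR adjusted p = 6.13e-05) and Gatad2b lost its call (-0.45, adjusted p = 0.0502). Over all genes, edgeR and DESeq2 counts differed by over 1.5 times in at least one direction in macrophages (4 higher and 4 lower against 168 and 120), fibroblasts (69 and 78 against 139 and 132), B cells (24 and 68 against 90 and 83), neutrophils (7 and 4 against 17 and 22), NK cells (11 and 18 against 6 and 3), T cells (634 and 1118 against 382 and 698), DCs (14 and 67 against 22 and 76) and melanoma cells (0 and 0 against 3 and 4). The cause of these shifts was not tested. Depth limits Rcor2 most, with 285 UMIs.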
